A study of Homo sapiens with 15 samples.

Results

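The 38 genes described here form the antioxidant and iron-handling set of a cultured lung cancer line: the transcription factor NRF2 and its partners, enzymes that NRF2 is known to switch on, the glutathione and thioredoxin systems, the superoxide and peroxide enzymes, and the genes of iron storage and heme transport. They were taken from a list of symbols and matched by name to the Ensembl gene IDs of the counts table, where they are 38 of 58395 genes. All 38 symbols were found, and 34 of the genes passed the filter on low counts that 16889 genes of the table passed.

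The cells were H1299, an established human line grown from non-small cell lung carcinoma, which the labels trace to a lymph node. They had spent 24 h in full RPMI 1640 with 5% FBS (fetal bovine serum) and then 12 h in serum-free RPMI 1640 of 5 kinds: 5 mM glucose with 4 mM NH4Cl (ammonium chloride, a source of ammonium), both nutrients (5 mM glucose and 4 mM glutamine), 4 mM glutamine alone, 5 mM glucose alone, and neither nutrient. None of the 5 media held serum, and each had 3 libraries of poly(A) RNA made with a stranded kit, 15 in all, with 14914127 to 19938691 counted reads. The labels speak of triplicate cells and name no day or batch, so a p-value here covers the variation among these 15 libraries alone, which can be technical. The comparisons ask what glutamine, glucose or ammonium changes in these genes.

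NRF2, the product of NFE2L2, is a transcription factor that KEAP1 marks for degradation in unstressed cells. When KEAP1 is modified by oxidants or electrophiles, NRF2 accumulates, pairs with a small MAF protein and binds antioxidant response elements near genes for glutathione synthesis, thioredoxin reduction, quinone and heme metabolism and ferritin. BACH1 competes for the same elements and represses HMOX1 in particular. Most of this control acts on the NRF2 protein, and protein was not measured here. Glutathione is built from glutamate, cysteine and glycine, so its synthesis draws on glutamine and on imported cystine. Glucose supplies the pentose phosphate pathway with the NADPH that reduces glutathione and thioredoxin.

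The sequences shown first hold motifs known from NRF2 binding and from iron regulation, and holding such a motif does not make a gene a target. The core of the antioxidant response element, TGACNNNGC, was searched on both strands in the 250 bases before each RefSeq start (build GRCh38.p14). RefSeq windows were at hand for 29 of the 38 genes, and 5 of these (17.2%) held the core, against 13.2% of all 27305 genes with a window. Among windows, 6 of 43 of the listed genes held it and 10.9% of all 35116. HMOX1, PRDX1, PRDX6, GSS, GSR, SOD1, TXN2, FTH1 and AKR1B10 had no window. GCLM and TXNRD1 are shown at full length because their RNAs lay highest with glutamine alone and lowest with both nutrients. Each line runs with the gene's own strand and ends at the base before the start, and capitals mark the core on either strand.
GCLM, chr1:93909431-93909680, minus strand, core 34 to 26 bases before the start: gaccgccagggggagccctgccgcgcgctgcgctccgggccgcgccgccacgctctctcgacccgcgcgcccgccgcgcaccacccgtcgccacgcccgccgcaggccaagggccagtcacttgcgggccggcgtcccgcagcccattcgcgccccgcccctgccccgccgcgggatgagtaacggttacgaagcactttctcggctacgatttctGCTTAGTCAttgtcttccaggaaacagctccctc
TXNRD1, at a start farther downstream, chr12:104286782-104287031, plus strand, core 102 to 94 bases before the start: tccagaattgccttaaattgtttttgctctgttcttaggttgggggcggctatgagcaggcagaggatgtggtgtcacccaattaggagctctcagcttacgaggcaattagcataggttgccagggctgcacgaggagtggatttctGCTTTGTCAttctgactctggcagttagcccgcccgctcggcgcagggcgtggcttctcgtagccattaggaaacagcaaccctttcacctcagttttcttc

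The other cores are shown with 8 bases on each side, for comparison with those above.
TXNRD1, upstream start, chr12:104215672-104215696, plus strand: acgggctaTGACTTCGCtgttgtca
KEAP1, outer core, chr19:10502809-10502833, minus strand: ttttattgTGACACGGCgggcgccc
KEAP1, inner core, chr19:10502786-10502810, minus strand: ccggctctGCTTAGTCAtggtgacc
AIFM2, chr10:70132831-70132855, minus strand: gcacgagtGCTGAGTCAcgccccgc
GSTP1, chr11:67583738-67583762, plus strand: cggcgccgTGACTCAGCactggggc
In AIFM2 and GSTP1 the core overlaps the AP-1-like sequence TGACTCA or TGAGTCA. A core in this window is a match of letters, not a measured site, and its absence says nothing of elements farther away. The genes that hold it did not move alike: when glutamine was added to glucose, GCLM and TXNRD1 fell, AIFM2 and GSTP1 rose, and KEAP1 was not called.

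Ferritin RNAs carry an iron-responsive element near their start, a hairpin that iron regulatory proteins bind when iron is scarce, which blocks translation. The loop CAGTGN with a paired stem and an unpaired C before it was searched in the first 250 bases of each GENCODE 29 transcript. It was found in 41 of 19684 protein-coding genes (0.208%), 2 of them listed here, and the capitals mark the loop.
FTH1, transcript bases 65 to 81 with flanks: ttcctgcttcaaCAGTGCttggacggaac
FTL, transcript bases 41 to 57 with flanks: ctcttgcttcaaCAGTGTttggacggaac

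The 4 genes under the low-count filter were the aldo-keto reductases AKR1B10 (0 to 3 counts in a library) and AKR1C3 (0 to 7), the glutathione peroxidase GPX1 (0 to 6) and the peroxiredoxin PRDX2 (0 to 6). GENCODE 29 lists GPX1 as a polymorphic pseudogene, and 14.7% of its 50-base stretches occur in other genes, against 2.15% for PRDX2. Both genes are usually abundant in cultured cells, and whether the counting step (the gene types counted, reads that fit several genes) lowered their counts was not tested, so these counts do not show that the genes were silent. Among the members tested, AKR1C1 and AKR1C2 stayed low, at no more than 18 and 31 counts in a library. These aldo-keto reductases share sequence (28.6% and 38.9% of their 50-base stretches, nearly all with each other), so the split of reads between them is uncertain. Levels are given in CPM, the counts of a gene per 1000000 of its library's total scaled by TMM. A floor of 3 counts is 0.150 to 0.237 CPM, for counting error only.

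Per kilobase of exon, the mean level over the 15 libraries was highest for the ferritin light chain FTL, at 954 CPM per kb. PRDX1 (308), PRDX5 (228), TXN (188) and TXNRD1 (177 CPM per kb) came next on this scale. The 8 glutathione genes tested ran on the same scale from 1.29 for GLRX to 109 CPM per kb for GPX4, with the 2 subunits of glutamate-cysteine ligase at 18.7 (GCLM) and 5.83 (GCLC). The ferritin heavy chain FTH1 stood at 89.7 CPM per kb, though 19.9% of its 50-base stretches occur in 15 other genes, FTH1P10 first among them, and 1267 of its 2030 exonic bases lie opposite BEST1. FTL shares 18.3% with FTLP3, and SRXN1 shares 84.7% with the same-strand gene AL121758.1, which held 2 to 15 counts against 119 to 437 for SRXN1. The labels do not say how reads that map to several genes were counted, and the counts of these genes are uncertain to that extent.

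The libraries with neither nutrient stood apart in composition. Their 10 most abundant genes held 12.3 to 12.4% of the counts, against 5.54 to 7.09% in the other media, and their TMM factors were 0.793, against 1.01 to 1.09. Summed over 8 genes, heat shock RNA stood at 3649 to 3669.5 CPM in glucose with NH4Cl, 10612 to 10753 CPM with both nutrients, 15639 to 15656 CPM with glutamine alone, 3572 to 3669 CPM with glucose alone and 98004 to 98943 CPM with neither. Targets of the amino acid response factor ATF4, also 8 genes, summed to 1850.2 to 1863, 232 to 239.5, 1526 to 1549.7, 2181 to 2235 and 937 to 949.9 CPM in the same order of media. The part of these programmes in the changes below was not tested. With library totals in place of TMM, the median log2 change of all genes moved by 0.44 for glucose against neither, 0.34 for glutamine against neither and 0.44 for both against neither, and by -0.34 for the interaction, so small changes against the medium with neither nutrient turn with the scaling. The line's markers KRT8, KRT18, VIM and CDH2 summed to 2300 to 3933 CPM in the 15 libraries. Alveolar and airway markers (SFTPC, SFTPB, SCGB1A1, NKX2-1) summed to at most 1.03 CPM, fibroblast markers to at most 2.99, leukocyte markers to at most 7.05 and endothelial markers, mainly ENG, to at most 18.0 CPM. SFTPC was at 0 with glutamine alone, with glucose alone and with neither nutrient, and LUM was at 0 in every medium but that with neither. COL1A2 was at 0 with glutamine alone, PTPRC in glucose with NH4Cl and with glutamine alone, CD3E with both and with glutamine alone, and CDH5 with neither. In RNA from bulk cultures, fewer cells of a kind and less RNA per cell cannot be told apart.

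Adding glutamine moved most of these genes one way in cells that had glucose and the other way in cells that had none. Of 34 members, 25 were called in both settings with opposite signs, by edgeR's quasi-likelihood F test with p-values adjusted by Benjamini and Hochberg across the 16889 genes and a threshold of 0.05. Over all 16889 genes the same held for 36.3%. In 13 genes glutamine raised the level when glucose was absent and lowered it when glucose was present: the regulators MAFG and BACH1, the target enzymes HMOX1, NQO1, SRXN1 and OSGIN1, the glutathione genes GCLM, GCLC and GSR, the reductase TXNRD1, PRDX5 and the ferritin chains FTH1 and FTL. In 12 it did the reverse: the thioredoxins TXN and TXN2, the peroxiredoxins PRDX1, PRDX3, PRDX4 and PRDX6, the superoxide dismutases SOD1 and SOD2, catalase (CAT), and GLRX, GSTP1 and GSS of the glutathione group. Among all genes 17.8% had the first pattern and 18.5% the second. With library totals the count was 23 of 34, without CAT and GSS, against 36.5% of all genes. It was 15 of 34, against 20.2%, when a change had to exceed 1.2-fold, with CAT, GSR, GSS, GSTP1, HMOX1, MAFG, OSGIN1, PRDX5, PRDX6 and TXN2 lost. GSS was also lost without the low-count filter, with at least 1 CPM in 3 libraries and in a fit of only the media compared. GSR was also lost without the low-count filter and under DESeq2's Wald test. Adding glucose gave opposite signs with and without glutamine for 19 of the 34, against 30.8% of all genes. These members were listed with earlier results of the same libraries known, so their share is a description.

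**Figure D1:**
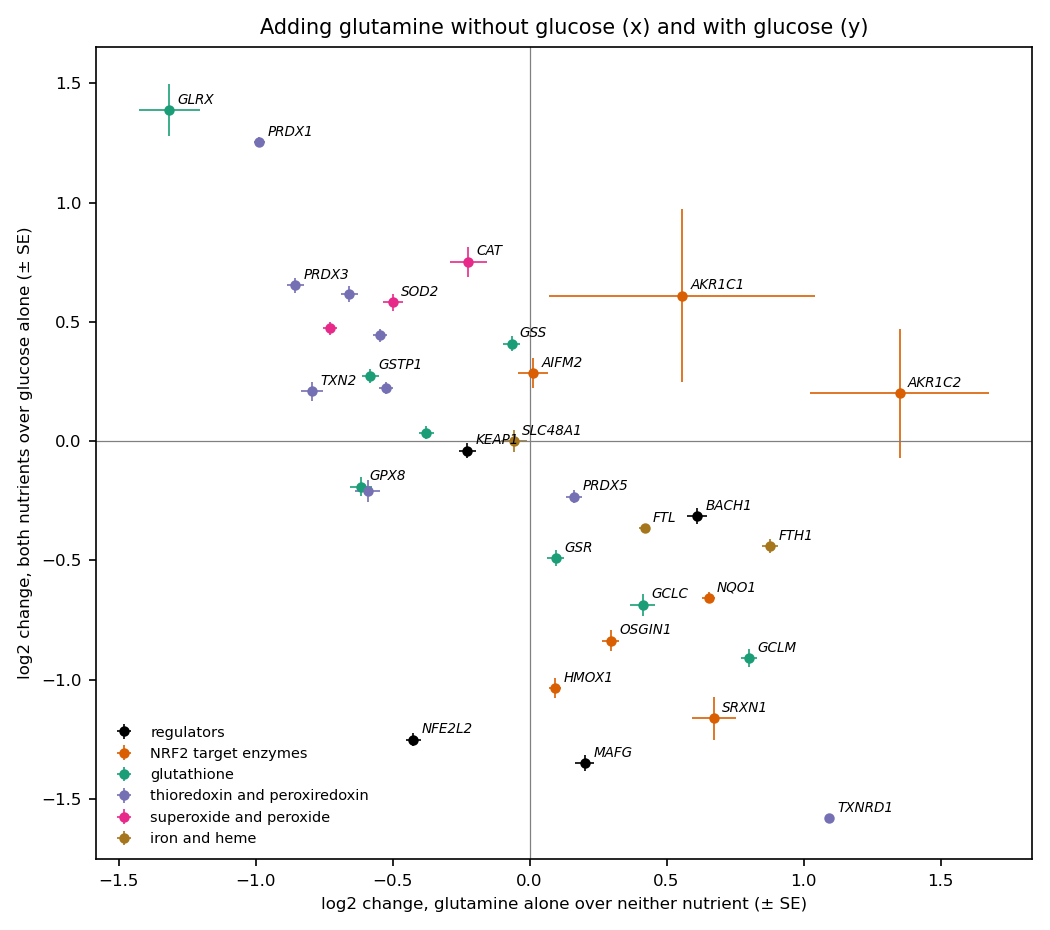
Log2 change of the 34 listed genes that passed the low-count filter on adding glutamine without glucose (x axis, glutamine alone over neither) and with glucose (y axis, both over glucose alone); points are estimates of the 15-library edgeR fit, bars are standard errors and colours give the role. TXNRD1 lies at the lower right (1.09 and -1.58), PRDX1 at the upper left (-0.99 and 1.25), and NFE2L2 fell on both axes.

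Of the regulators, NFE2L2 and MAFG were lowest in the medium with both nutrients, apart from the libraries of every other medium. KEAP1 had its lowest mean there too, but within the spread of glucose with NH4Cl, and BACH1 was lowest with neither nutrient. NFE2L2, which encodes NRF2 itself, had 101, 98.8 and 96.9 CPM in the libraries with both nutrients, against 231, 233 and 241 CPM with glucose alone. It had 148, 152 and 153 CPM with glutamine alone, against 203, 202 and 202 CPM with neither nutrient. No libraries of these 4 media overlapped. NFE2L2 fell when glutamine was added to glucose (-1.25 ± 0.03 log2, ± SE; 2.38-fold; adjusted p = 1.39e-96, edgeR) and when it was added without glucose (-0.42 ± 0.03), and the difference between these changes was -0.83 ± 0.04. With library totals the fall without glucose kept its sign, but the median of all genes there moved up by 0.34 log2. Some 13.2% of the 50-base stretches of NFE2L2 are shared with AC019080.1, which held 17 to 128 counts against 1657 to 4210 for NFE2L2.

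MAFG encodes a small MAF protein that pairs with NRF2. Its level was 64.1, 65.3 and 64.5 CPM with both nutrients, against 167, 169 and 158 CPM with glucose alone, a fall of 2.55-fold (-1.35 ± 0.03 log2). With glutamine alone it was 105, 115 and 113 CPM, against 95.3, 102 and 92.7 CPM with neither nutrient (0.20 ± 0.03 log2). The libraries did not overlap in either pair, and the signs were opposite. BACH1, the repressor, was at 82.3, 81.1 and 78.4 CPM with both nutrients, against 95.1, 104 and 102 CPM with glucose alone (-0.31 ± 0.03 log2). In glutamine alone it reached 100.4, 95.7 and 96.3 CPM, against 65.1, 64.6 and 61.5 CPM with neither, where every library lay below those of the other media.

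KEAP1, the sensor that targets NRF2 for degradation, moved least of the 4. It had 115, 113 and 115 CPM in glucose with NH4Cl, 117, 114 and 111 CPM with both, 128, 129 and 129.8 CPM with glutamine alone, 118, 116 and 118 CPM with glucose alone and 150.4, 156 and 147 CPM with neither. Both nutrients against glucose alone gave -0.04 ± 0.03 log2, not called. Against neither nutrient KEAP1 was called lower in glucose alone (-0.37 log2), glutamine alone (-0.23) and both (-0.41), and with library totals these values turned to 0.07, 0.12 and 0.04. The order of KEAP1 in both nutrients and in glucose with NH4Cl lay within the spread of their libraries.

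**Figure D2:**
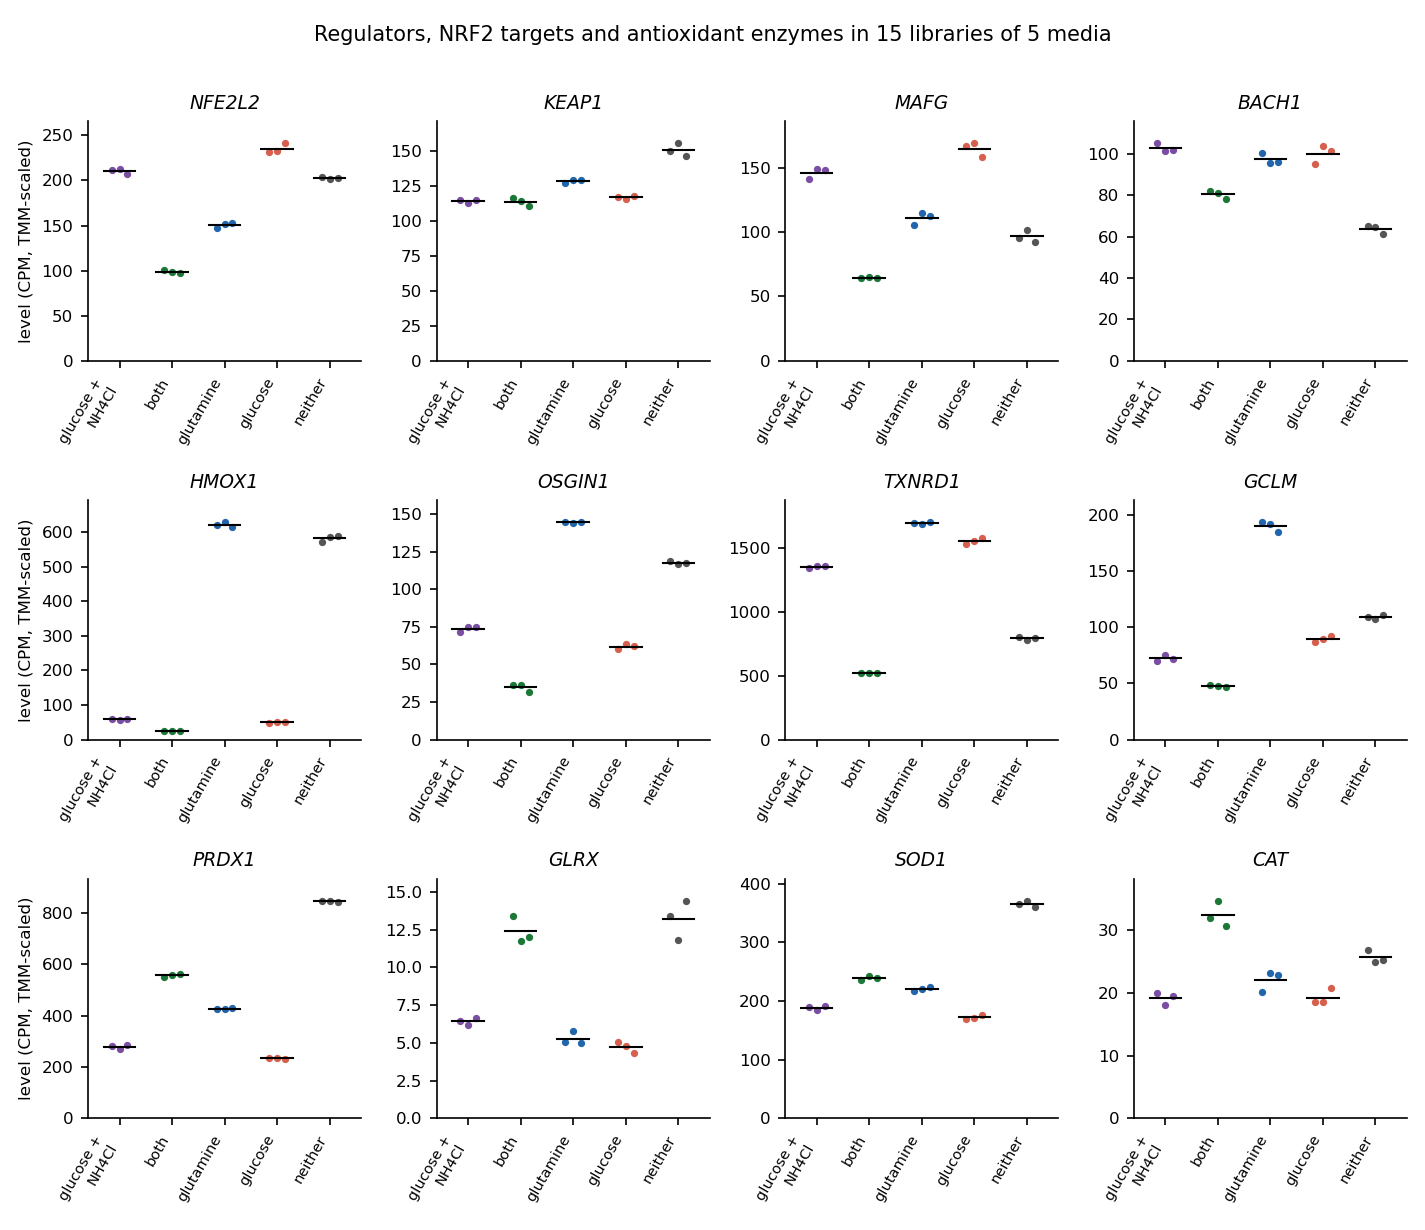
Levels of 12 listed genes in the 15 libraries; the y axis is CPM on TMM-scaled totals from 0, each point is a library, each bar the mean of 3, and the media run from glucose with NH4Cl on the left to neither nutrient on the right. NFE2L2, MAFG, TXNRD1, GCLM, OSGIN1 and HMOX1 are lowest with both nutrients, whereas PRDX1 and SOD1 are highest with neither.

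Of the 9 NRF2 target enzymes, 7 were tested, and HMOX1 had the widest range of all members. Heme oxygenase, its product, opens the heme ring and frees the iron. HMOX1 stood at 23.5, 25.5 and 23.4 CPM in the libraries with both nutrients, against 622, 630.2 and 614 CPM with glutamine alone, 25.8-fold lower (-4.69 ± 0.03 log2, adjusted p = 9.25e-188 by edgeR). Glucose alone gave 47.7, 49.4 and 51.2 CPM, against 573, 587 and 589.9 CPM with neither nutrient, 11.8-fold lower (-3.56 ± 0.03 log2). Every library without glucose was therefore above every library with it. Glutamine added a smaller change on top, -1.03 ± 0.04 log2 in cells with glucose and 0.09 ± 0.02 in cells without. The heat shock sum was lower with glucose in both pairs as well, and that programme's part in the change was not tested.

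OSGIN1, an oxidative stress-induced growth inhibitor, had the same order of media as HMOX1 over a narrower range. It was at 36.4, 36.5 and 31.3 CPM with both nutrients, against 145, 144 and 145 CPM with glutamine alone (-2.06 ± 0.04 log2). It was at 60.4, 63.3 and 61.9 CPM with glucose alone, against 118, 117 and 117 CPM with neither (-0.93 ± 0.04 log2). The libraries of each pair were apart. SRXN1, sulfiredoxin, repairs over-oxidised peroxiredoxins. Its level was 8.12, 7.09 and 7.15 CPM with both nutrients, against 22.7, 21.8 and 22.2 CPM with glutamine alone and 14.9, 18.2 and 17.1 CPM with glucose alone. With neither nutrient it averaged 13.9 ± 1.19 CPM (mean ± SD, n = 3 in every medium, here and below). SRXN1 was lowest with both nutrients (-1.16 ± 0.09 log2 against glucose alone, -1.58 ± 0.09 against glutamine alone). Its rise in glucose alone against neither (0.26 ± 0.08 log2) was lost without glucose replicate 2 or neither replicate 3, at 0.19 log2 each.

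NQO1, a quinone reductase often used as a readout of NRF2, followed another order. It averaged 235 ± 3.47 CPM with both nutrients, 364 ± 7.77 CPM with glutamine alone, 370.5 ± 13.7 CPM with glucose alone and 231 ± 3.37 CPM with neither. Either nutrient alone thus raised NQO1 (0.65 ± 0.02 log2 for glutamine and 0.68 ± 0.02 for glucose), while both together did not differ detectably from neither (0.02 ± 0.03 log2, not called; called at 0.47 with library totals). AIFM2 makes a membrane oxidoreductase that regenerates reduced coenzyme Q and limits lipid peroxidation. It was lower wherever glucose was present, at 25.8 ± 0.873 CPM with both against 40.0 ± 1.40 CPM with glutamine alone (-0.63 ± 0.05 log2), and at 21.2 ± 1.39 CPM with glucose alone against 39.8 ± 0.972 CPM with neither (-0.91 ± 0.06 log2). Unlike the genes above, AIFM2 was higher with both nutrients than with glucose alone (0.29 ± 0.06 log2). AKR1C1 and AKR1C2 were called higher with both nutrients than with neither (1.32 ± 0.44 and 1.17 ± 0.34 log2), from means of 0.937 and 1.40 CPM with both, against 0.377 and 0.632 CPM with neither.

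In the glutathione system, glutamate-cysteine ligase and glutathione reductase fell, and GLRX, GSS and GSTP1 rose, when glutamine was added to glucose. GCLM, the modifier subunit of glutamate-cysteine ligase, had 48.4, 47.9 and 46.7 CPM with both nutrients, against 193, 191 and 185 CPM with glutamine alone. That is 3.98-fold lower (-1.99 ± 0.03 log2, adjusted p = 2.69e-119 by edgeR). GCLM had 87.1, 89.5 and 91.8 CPM with glucose alone, against 109, 107 and 110.5 CPM with neither, a change of -0.28 ± 0.03 log2 that turned to 0.15 with library totals. The libraries with glutamine alone were thus the highest and those with both nutrients the lowest. GCLC, the catalytic subunit, kept to the same extremes over a narrower range, at 35.5 ± 1.04 CPM with both, 60.1 ± 0.91 CPM with glutamine alone, 57.0 ± 0.477 CPM with glucose alone and 45.2 ± 1.99 CPM with neither. With library totals GCLC in both against neither turned to 0.10 log2 and was not called. GSR, which regenerates reduced glutathione, was also lowest with both, at 78.9 ± 3.81 CPM, against 127 ± 3.90 CPM with glutamine alone and 111 ± 2.30 CPM with glucose alone (-0.69 ± 0.03 and -0.49 ± 0.03 log2). Its rise with glutamine alone against neither (0.10 ± 0.03 log2) was lost without glutamine replicate 2, at 0.07 log2.

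GLRX encodes glutaredoxin, which removes glutathione from protein thiols, and it stood with TXNRD1 at the ends of the members' range of differences between the settings. It was at 13.4, 11.7 and 12.0 CPM with both nutrients, against 5.05, 4.81 and 4.31 CPM with glucose alone, 2.62-fold higher (1.39 ± 0.11 log2). With glutamine alone it was at 5.07, 5.79 and 5.00 CPM, against 13.4, 11.8 and 14.4 CPM with neither, 2.50-fold lower (-1.31 ± 0.11 log2). Either nutrient alone went with a low level, and the difference between the glutamine changes was 2.70 ± 0.16 log2. With library totals the difference was larger in size for TXNRD1 than for GLRX. GLRX rests on 73 to 238 counts in a library. GSS, the synthetase of the final step, and GSTP1, a conjugating transferase, also rose when glutamine was added to glucose (0.41 ± 0.03 and 0.27 ± 0.03 log2). GSS averaged 125 ± 2.25 CPM with both and 93.9 ± 2.34 CPM with glucose alone, and GSTP1 averaged 153 ± 4.69 and 127 ± 1.23 CPM in the same media. Without glucose GSTP1 fell (-0.58 ± 0.03). For GSS that change was -0.07 ± 0.03 log2, was lost without any of 4 libraries (glutamine replicate 1 or 3, neither replicate 1 or 2) and turned to 0.28 with library totals.

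Of the peroxidases, GPX4 reduces lipid peroxides and GPX8 works in the endoplasmic reticulum. GPX4 had 212 ± 5.33 CPM with both nutrients against 207 ± 8.18 CPM with glucose alone (0.04 ± 0.03 log2, not called). With glutamine alone GPX4 had 194 ± 2.16 CPM against 251 ± 7.10 CPM with neither (-0.38 ± 0.03 log2), which became -0.03 and was not called with library totals. GPX8 fell on adding glutamine both with glucose, at 57.8 ± 0.489 CPM with both against 66.0 ± 2.00 CPM with glucose alone (-0.19 ± 0.04 log2), and without it, at 51.9 ± 1.89 CPM with glutamine alone against 79.6 ± 3.03 CPM with neither (-0.62 ± 0.04). Among the 8 glutathione genes tested, 3 rose and 4 fell when glutamine was added to glucose (median -0.08 log2, against 0.00 for all genes), in a comparison where 67.9% of all genes were called.

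On adding glutamine, with glucose or without it, the cytosolic thioredoxin reductase changed in the opposite direction to thioredoxin and to the peroxiredoxins tested except PRDX5. TXNRD1, the cytosolic reductase that recharges thioredoxin with NADPH, had 523, 518 and 522 CPM with both nutrients, against 1534, 1557 and 1585 CPM with glucose alone, 2.99-fold lower (-1.58 ± 0.02 log2, adjusted p = 3.23e-151 by edgeR). With glutamine alone it had 1700.0, 1694 and 1707 CPM, against 807, 784 and 798 CPM with neither, 2.13-fold higher (1.09 ± 0.02 log2). Its libraries with either nutrient alone lay above all those with both or neither, and the difference between the glutamine changes was -2.67 ± 0.02 log2. This did not hold for every pair of media: both nutrients against neither lowered TXNRD1 (-0.61 ± 0.02 log2), TXN (-0.59 ± 0.03) and PRDX1 (-0.60 ± 0.02) alike in sign. The mitochondrial reductase TXNRD2 fell on adding glutamine in both settings: it had 42.0 ± 0.736 CPM with both against 48.5 ± 2.40 CPM with glucose alone (-0.21 ± 0.05 log2), and 42.5 ± 1.39 CPM with glutamine alone against 64.1 ± 1.29 CPM with neither (-0.59 ± 0.05 log2).

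PRDX1, the main cytosolic peroxiredoxin, which uses thioredoxin to reduce peroxide, ran the other way on adding glutamine. It was at 553, 559 and 561 CPM with both nutrients, against 235, 235 and 231 CPM with glucose alone, 2.39-fold higher (1.25 ± 0.02 log2). With glutamine alone it was at 425, 426 and 432 CPM, against 849, 846 and 844 CPM with neither, 1.98-fold lower (-0.99 ± 0.02 log2). The libraries of the 4 media kept apart, with neither nutrient highest and glucose alone lowest, 3.62-fold lower (-1.86 ± 0.02 log2).

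On TMM-scaled levels the mitochondrial PRDX3 and the endoplasmic reticulum PRDX4 kept to the same order at its ends. With library totals PRDX3 was called higher with both than with neither, at 0.15 log2. PRDX3 had 146, 149 and 146 CPM with both against 93.5, 92.8 and 93.8 CPM with glucose alone (0.65 ± 0.03 log2). It had 101, 101 and 95.8 CPM with glutamine alone against 189.9, 174 and 175 CPM with neither (-0.86 ± 0.03 log2). PRDX4 had 115, 113 and 113 CPM with both against 75.1, 73.5 and 73.6 CPM with glucose alone (0.62 ± 0.03 log2), and in the media without glucose 107 ± 2.18 CPM with glutamine against 167, 169 and 171 CPM with neither. These libraries too were apart in each pair. PRDX6, whose reductant is glutathione, was at 213, 219 and 216 CPM with both against 179.9, 186 and 189.6 CPM with glucose alone (0.22 ± 0.03 log2) and highest with neither, at 337, 338 and 336 CPM. PRDX5 differed from the other peroxiredoxins in sign: it had 169, 176 and 167 CPM with both against 202, 203 and 197 CPM with glucose alone (-0.23 ± 0.03 log2).

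Thioredoxin itself, TXN, was at 213, 208 and 208 CPM with both nutrients, against 150.2, 155 and 157 CPM with glucose alone (0.44 ± 0.03 log2). It was at 223, 215 and 209 CPM with glutamine alone, against 312, 318 and 316 CPM with neither (-0.55 ± 0.03 log2). Mitochondrial TXN2 moved the same ways, by 0.21 ± 0.04 and -0.79 ± 0.04 log2. Of the 9 thioredoxin and peroxiredoxin genes tested, 6 rose and 3 fell (TXNRD1, TXNRD2 and PRDX5) when glutamine was added to glucose, where 67.9% of all genes were called. Without glucose 2 rose (TXNRD1 and PRDX5) and 7 fell on adding glutamine, where 72.8% of all genes were called.

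The superoxide dismutases and catalase rose on adding glutamine to glucose and fell on adding it without glucose, though with library totals the second was not called for CAT. Cytosolic SOD1 was at 235, 242 and 239.6 CPM with both nutrients, against 169, 172 and 176 CPM with glucose alone (0.47 ± 0.03 log2). With glutamine alone it was at 217, 220.1 and 224 CPM, against 365, 371 and 359.5 CPM with neither (-0.73 ± 0.02 log2). The libraries with neither nutrient were the highest and those with glucose alone the lowest. Mitochondrial SOD2 averaged 98.6 ± 2.14 CPM with both, 69.3 ± 3.33 CPM with glutamine alone, 65.8 ± 1.34 CPM with glucose alone and 97.5 ± 5.22 CPM with neither, so that it was low with either nutrient alone. Both against neither was not called (0.01 ± 0.04 log2), but was called higher, at 0.46, with library totals. Another Ensembl entry named SOD2, on the same strand, overlaps 845 of the 16493 exonic bases of the entry used. It held 0 to 1 counts in a library, against 1085 to 1805 for the entry used. Peroxisomal catalase, CAT, was highest with both nutrients, at 32.5 ± 2.06 CPM against 19.3 ± 1.29 CPM with glucose alone (0.75 ± 0.06 log2). Its fall with glutamine alone, 22.0 ± 1.67 CPM against 25.7 ± 1.03 CPM with neither (-0.22 ± 0.07 log2), turned to 0.12 with library totals.

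On TMM-scaled levels both ferritin chains were highest with glutamine alone and lowest with both nutrients. With library totals FTH1 in both against neither turned to 0.05 log2 and was not called. FTH1, the heavy chain that oxidises iron for storage, had 124, 115 and 120.3 CPM with both, against 296, 287 and 285 CPM with glutamine alone, 2.42-fold lower (-1.27 ± 0.03 log2, adjusted p = 1.59e-92 by edgeR). With glucose alone it had 157, 166 and 164 CPM, against 153, 159.8 and 160.2 CPM with neither, where the libraries overlapped (0.04 ± 0.03 log2, not called; called at 0.48 with library totals). FTL, the light chain, had 565, 576 and 555 CPM with both, against 1193, 1184 and 1136 CPM with glutamine alone, 2.07-fold lower (-1.05 ± 0.02 log2). The glucose effect on FTL without glutamine was small (719.5, 732 and 734 CPM with glucose alone, against 862, 878 and 887 CPM with neither, -0.27 ± 0.02 log2) and turned to 0.17 with library totals. Against glucose alone, both nutrients gave -0.44 ± 0.03 log2 for FTH1 and -0.37 ± 0.02 log2 for FTL. The iron-responsive elements shown above govern translation in known biology, and these values are RNA alone. SLC48A1, a transporter that moves heme out of endosomes and lysosomes, was called in none of the 8 tests, with means of 48.1 ± 1.04, 49.7 ± 2.24, 48.3 ± 0.855, 49.7 ± 1.39 and 50.2 ± 2.26 CPM in glucose with NH4Cl, both, glutamine alone, glucose alone and neither. Its unadjusted p was under 0.05 in 0 of the 8, and DESeq2's Wald test called it in 0. With library totals it came out 0.42 log2 higher with glucose alone, 0.29 with glutamine alone and 0.43 with both than with neither, all 3 called, and was also called between both and glutamine alone, at 0.14.

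Other iron genes, from a list of 29 of which 27 were tested, moved against ferritin in places. TFRC, the transferrin receptor that brings iron into the cell, was at 414, 431 and 407 CPM with both nutrients, against 102, 109 and 103 CPM with glucose alone, 3.99-fold higher (2.00 ± 0.03 log2). With glutamine alone it was at 250.2, 252 and 251 CPM, against 379.6, 366 and 377 CPM with neither (-0.57 ± 0.02 log2). SLC39A14, an importer of iron not bound to transferrin, had 72.2, 73.7 and 76.2 CPM with both, against 208, 207 and 213 CPM with glutamine alone (-1.50 ± 0.03 log2) and 139.9, 145 and 141 CPM with glucose alone (-0.94 ± 0.03 log2). In the medium with both nutrients TFRC was thus high where ferritin was low. Opposite changes did not hold throughout: on adding NH4Cl to glucose TFRC (0.67 ± 0.03 log2) and both ferritin chains were called higher. On TMM-scaled levels SLC39A14 shared with ferritin its highest mean, with glutamine alone, and its lowest, with both. With library totals SLC39A14 in both against neither turned to 0.07 log2 and was not called. It did not share every change: on adding NH4Cl to glucose it was -0.28 log2 while both ferritin chains were called higher. With glucose alone against neither SLC39A14 was 0.56 log2 while FTL was -0.27. IREB2, which encodes an iron regulatory protein, averaged 61.1 ± 0.966 CPM with both, 59.2 ± 4.00 CPM with glutamine alone, 72.2 ± 1.31 CPM with glucose alone and 27.7 ± 1.30 CPM with neither, where every library was lowest. ISCU, the scaffold for iron-sulfur clusters, fell when glutamine was added to glucose (-0.69 ± 0.03 log2), while STEAP3, an endosomal ferrireductase, and PCBP1, an iron chaperone, rose (1.11 ± 0.04 and 0.68 ± 0.03 log2). In that comparison 12 of the 27 rose and 8 fell, where 34.2% of all genes were higher and 33.7% lower.

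**Figure D3:**
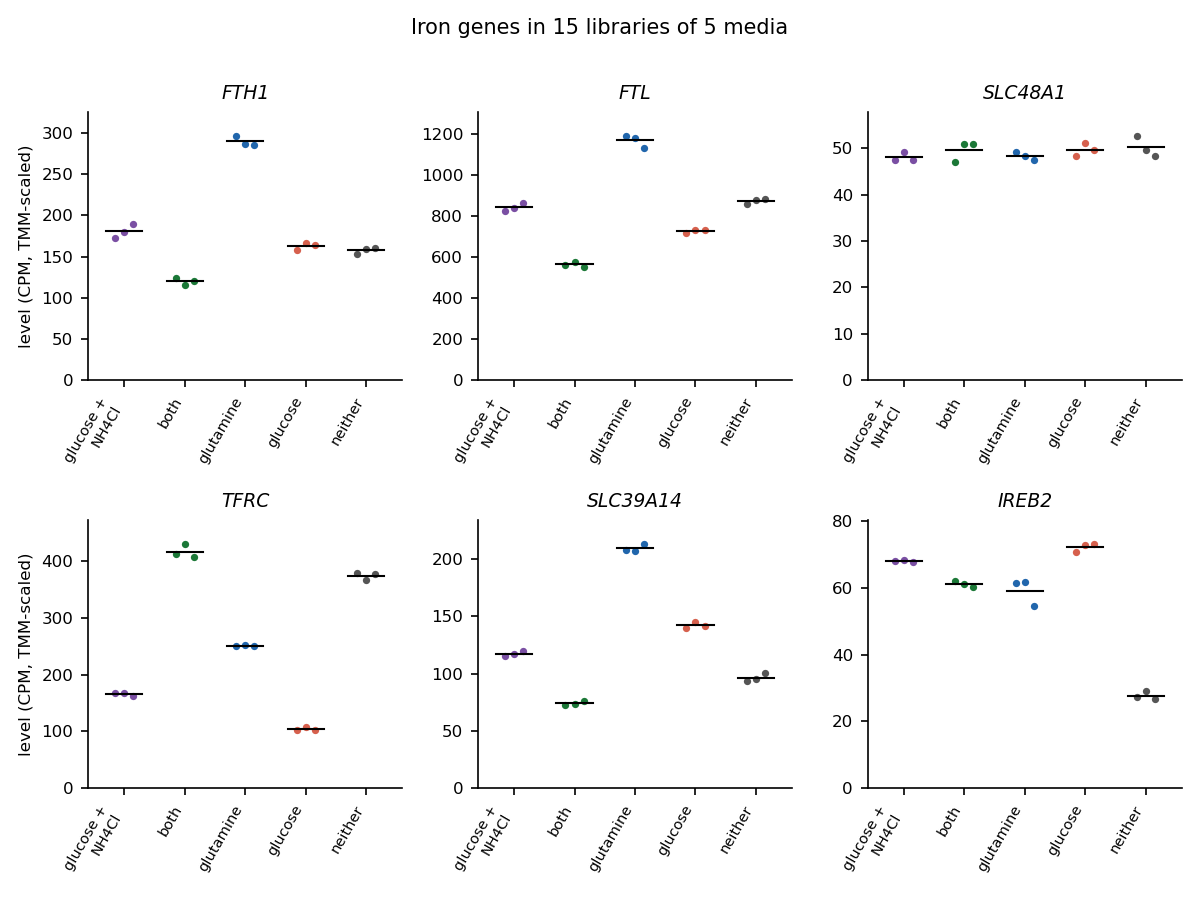
Levels of the 3 listed iron and heme genes (top) and of 3 further iron genes (bottom) in the 15 libraries; the y axis is CPM on TMM-scaled totals from 0, points are libraries, bars are means of 3 and media run from glucose with NH4Cl on the left to neither on the right. FTH1 and FTL peak with glutamine alone, SLC48A1 is level, and TFRC is highest with both nutrients.

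Counted over all members, 29 of 34 (85.3%) were called between both nutrients and glucose alone, 13 higher and 16 lower. Of all genes tested 67.9% were called there, 34.2% higher and 33.7% lower. The median log2 change of the members was -0.02, against 0.00 for all genes. Between both nutrients and glutamine alone, 11 were higher and 18 lower, against 32.6% and 33.0% of all genes (65.6% called). The members' median there was -0.15, against -0.01 for all genes, and all 5 target enzymes called (HMOX1, OSGIN1, SRXN1, NQO1 and AIFM2) were lower. The call of GSS (-0.07 ± 0.03 log2, lower) was lost without replicate 1 or 3 of both nutrients or glutamine replicate 2, and its value turned to 0.03 with library totals. PRDX4 was called higher by 0.09 ± 0.03 log2, which was lost without glutamine replicate 3. Tested against a 1.2-fold change, 19 members were called here, against 38.4% of all genes. For the interaction of glucose and glutamine, 17 members were positive and 15 negative, against 6214 and 6421 of the 16889 genes (74.8% called). With library totals this split became 12 and 17, against 25.6% and 50.3% of all genes.

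Against the medium with neither nutrient, falls outnumbered rises when counts were scaled by TMM. Glucose alone raised 9 members and lowered 22, where 39.9% of all genes were higher and 37.9% lower (77.8% called). The call of PRDX5 among the rises (0.06 ± 0.03 log2) was lost when any of 12 of the 15 libraries was left out, with values of 0.03 to 0.06, and that of AKR1C2 (0.97 ± 0.35) without glucose replicate 1 or neither replicate 1. The largest changes were the falls of HMOX1, PRDX1, GLRX, PRDX4 (-1.19 ± 0.03 log2), SOD1 (-1.09 ± 0.03) and TXN (-1.03 ± 0.03). Glutamine alone raised 14 and lowered 17, against 37.0% and 35.8% of all genes (72.8% called), with TXNRD1 and FTH1 (0.88 ± 0.03 log2) rising most among members of at least 5 CPM. Both nutrients raised 4 and lowered 26, against 37.0% and 35.3% of all genes (72.3% called), with HMOX1 (-4.60 ± 0.03 log2), OSGIN1 (-1.76 ± 0.04), GCLM (-1.19 ± 0.04) and NFE2L2 (-1.04 ± 0.03) falling most. The members' medians were -0.33, -0.06 and -0.48 log2, against 0.05, 0.02 and 0.05 for all genes. With library totals the splits became 18 higher and 14 lower for glucose, where 60.1% of all genes were higher and 20.9% lower. They became 18 and 13 for glutamine (56.4% and 19.6% of all genes) and 12 and 16 for both nutrients (64.3% and 14.2%). The 6 largest falls in glucose named here kept their direction under library totals, as did the rises of TXNRD1 and FTH1.

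Members not called and not yet given with these pairs of media were few. They were GLRX between both and neither (-0.09 ± 0.10 log2; called higher, at 0.35, with library totals), TXN and TXNRD2 between both and glutamine alone (-0.04 ± 0.03 and -0.02 ± 0.05 log2; TXN was called higher, at 0.06, with library totals), and the scarce AKR1C1 and AKR1C2. AKR1C1 was called in 1 of the 8 tests, with estimates of 0.71 ± 0.48 log2 for glucose alone and 0.56 ± 0.49 for glutamine alone against neither, 0.61 ± 0.36 for both against glucose alone, 0.76 ± 0.37 for both against glutamine alone and 0.05 ± 0.66 for the interaction. Leaving out 1 library called it in 3 of these: glucose replicate 2 for glucose alone against neither (1.08 log2), glucose replicate 1 for both against glucose alone (1.17) and glutamine replicate 3 for both against glutamine alone (1.17). The first and last of these were called with library totals too. AKR1C2 was not called between both and glucose alone (0.20 ± 0.27 log2) or both and glutamine alone (-0.18 ± 0.26).

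Of 34 members, 15 had their highest mean with neither nutrient, 11 with glutamine alone, 3 with both, 3 with glucose alone and 2 in glucose with NH4Cl. The lowest mean fell with both nutrients for 14, with glucose alone for 11, with neither for 4, with glutamine alone for 3 and with NH4Cl for 2. The 3 libraries of each medium did not overlap for 29 of 34 members between both and glucose alone (69.9% of all genes), for 29 between both and glutamine alone (68.2%) and for 30 between both and neither (73.1%). They did not overlap for 30 between glutamine alone and neither (74.1%), 28 between glucose alone and neither (78.6%), 25 between glucose with NH4Cl and glucose alone (39.9%) and 31 between glucose with NH4Cl and both (67.5%). By role, 7 of the 9 thioredoxin and peroxiredoxin genes were highest with neither, and 5 of the 7 target enzymes were highest with glutamine alone. Among these 5, the libraries of AIFM2 overlapped with those of neither nutrient, and those of the scarce AKR1C2 with those of both. Highest and lowest media were not counted over all genes, so these counts are descriptions without a share to set them against. These orders were taken on TMM-scaled levels, and some turned with library totals. Among members highest with neither, GSS (0.31), GPX4 (0.20), PRDX3 (0.15) and GLRX (0.35 log2) were then called higher with both than with neither.

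**Figure D4:**
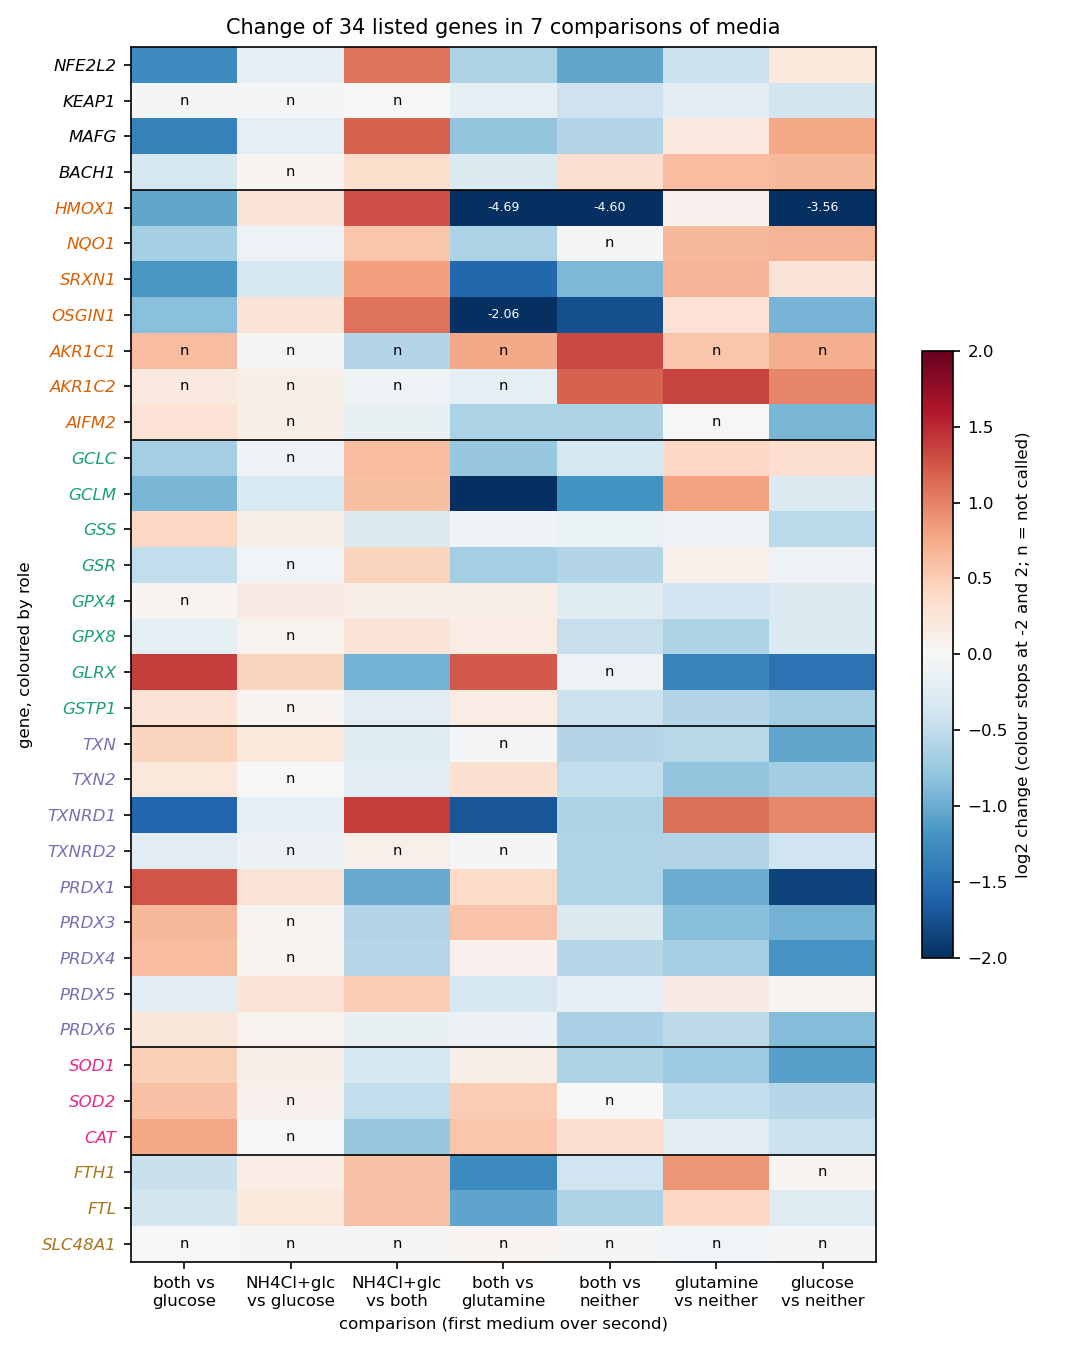
Log2 change of the 34 listed genes (rows, labels coloured by role) in 7 comparisons of media (columns, first medium over second); red is higher, blue is lower, the colour stops at -2 and 2, larger changes are printed, and n marks genes not called by edgeR. HMOX1 and OSGIN1 are far lower wherever glucose was added, and SLC48A1 was not called anywhere.

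Adding NH4Cl to glucose shows what ammonium changes when no glutamine is present. The members' log2 changes ran from -0.34 to 0.44. Of 34 members, 18 were called, 12 higher and 6 lower, against 12.7% and 16.9% of all genes (29.6% called), with a median of 0.06 log2 against -0.01 for all genes. Tested against a 1.2-fold change by edgeR, 0 members passed after adjustment and 2 (GLRX and GCLM) had an unadjusted p under 0.05, where 444 of all genes (2.63%) passed. GLRX rose most, at 6.46, 6.16 and 6.66 CPM in glucose with NH4Cl against 5.05, 4.81 and 4.31 CPM with glucose alone (0.44 ± 0.13 log2, adjusted p = 0.00334 by edgeR). SRXN1 fell, at 12.6, 14.2 and 12.7 CPM with NH4Cl against 14.9, 18.2 and 17.1 CPM without (-0.34 ± 0.08 log2). The libraries of either gene did not overlap between these media.

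GCLM was at 69.7, 75.0 and 71.7 CPM with NH4Cl against 87.1, 89.5 and 91.8 CPM with glucose alone (-0.31 ± 0.04 log2). HMOX1 was at 60.5, 57.7 and 59.5 CPM with NH4Cl against 47.7, 49.4 and 51.2 CPM without (0.26 ± 0.04 log2), and OSGIN1 rose as well (0.25 ± 0.04). PRDX5 was at 234, 235 and 256 CPM with NH4Cl against 202, 203 and 197 CPM without (0.27 ± 0.03 log2). On adding glutamine to the same glucose libraries, the changes were -1.03 for HMOX1, -0.84 for OSGIN1 and -0.23 log2 for PRDX5. PRDX1 (0.25 ± 0.02 log2), TXN (0.21 ± 0.03), SOD1 (0.13 ± 0.03), GSS (0.13 ± 0.03), GPX4 (0.17 ± 0.03), FTL (0.22 ± 0.02) and FTH1 (0.15 ± 0.03) were also called higher. TXNRD1 (-0.20 ± 0.02 log2), MAFG (-0.17 ± 0.03), NFE2L2 (-0.16 ± 0.03) and NQO1 (-0.10 ± 0.02, not called without the low-count filter) were called lower. PRDX6 was called higher by 0.07 ± 0.03 log2, which was lost without NH4Cl replicate 2 or 3 or glucose replicate 1.

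The 16 members not called on adding NH4Cl had estimates between -0.11 and 0.13 log2. Among regulators these were KEAP1 (-0.03 ± 0.03 log2) and BACH1 (0.04 ± 0.03), and among target enzymes AIFM2 (0.13 ± 0.06), AKR1C1 (0.03 ± 0.40) and AKR1C2 (0.12 ± 0.28). In the glutathione group they were GCLC (-0.07 ± 0.04 log2), GSR (-0.05 ± 0.03), GPX8 (0.07 ± 0.04) and GSTP1 (0.05 ± 0.03). Of the thioredoxin genes, TXN2 (-0.01 ± 0.04 log2), TXNRD2 (-0.11 ± 0.05), PRDX3 (0.06 ± 0.03) and PRDX4 (0.04 ± 0.04) were not called. SOD2 (0.08 ± 0.04 log2), CAT (-0.0042 ± 0.07) and SLC48A1 (-0.05 ± 0.05) complete the list. SOD2 passed without NH4Cl replicate 3 and TXNRD2 without glucose replicate 3.

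**Figure D5:**
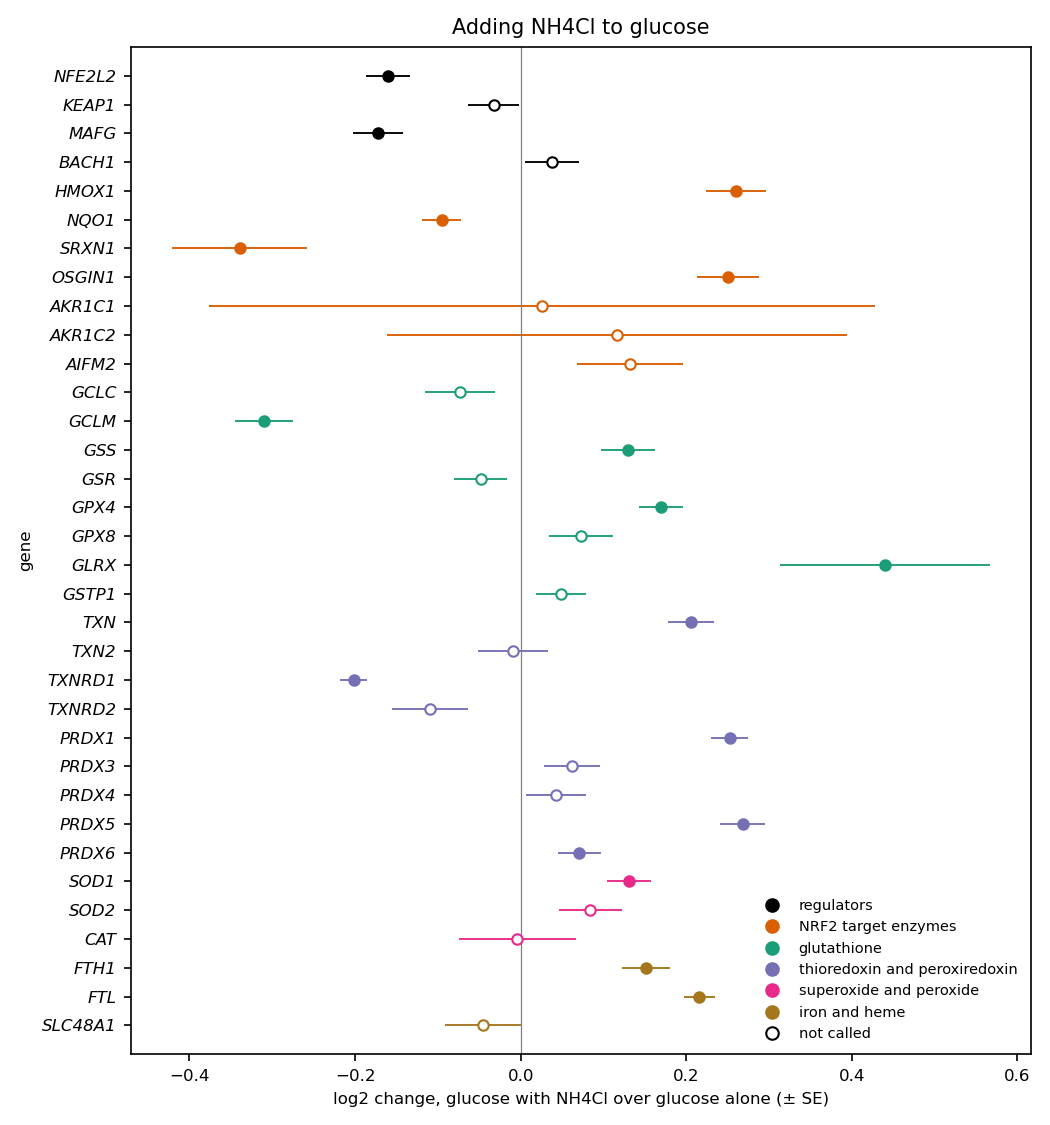
Log2 change of the 34 listed genes in glucose with NH4Cl over glucose alone (x axis), in role order from the regulators at the top; points are estimates of the 15-library edgeR fit, bars are standard errors and open points were not called. GLRX lies farthest right at 0.44 and SRXN1 farthest left at -0.34.

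Ammonium and glutamine, both given with glucose, left the genes at different levels. Between glucose with NH4Cl and both nutrients, 16 members were higher and 13 lower, against 31.2% and 33.4% of all genes (64.6% called). TXNRD1 was 2.60-fold higher with NH4Cl, at 1347, 1360.0 and 1358 CPM, against 523, 518 and 522 CPM with both (1.38 ± 0.02 log2). NFE2L2 had 212, 213 and 207 CPM with NH4Cl against 101, 98.8 and 96.9 CPM with both (1.09 ± 0.03 log2), and MAFG had 141, 149 and 149 CPM with NH4Cl against 64.1, 65.3 and 64.5 CPM with both (1.18 ± 0.03 log2). PRDX1 was at 282, 269 and 285 CPM with NH4Cl against 553, 559 and 561 CPM with both (-1.0 ± 0.02 log2). In each of these genes all 3 libraries with NH4Cl lay apart from all 3 with both nutrients. HMOX1 and OSGIN1 were higher with NH4Cl by 1.30 ± 0.04 and 1.09 ± 0.04 log2. AIFM2 was called lower (-0.15 ± 0.06 log2), a call lost without NH4Cl replicate 1 or without replicate 1 or 3 of both nutrients. Between glucose with NH4Cl and both, KEAP1 (0.01 ± 0.03 log2), TXNRD2 (0.10 ± 0.05, but called with library totals, with DESeq2 or in a fit of these media alone), AKR1C1 (-0.58 ± 0.37), AKR1C2 (-0.08 ± 0.27) and SLC48A1 (-0.05 ± 0.05) were not called. The ATF4 sum was 1850.2 to 1863 CPM with NH4Cl against 232 to 239.5 CPM with both, and its part in these differences was not tested.

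A further 107 genes of the same pathways, 98 of them tested, give the setting. When glutamine was added to glucose, 48 of the 98 rose and 29 fell, with a median of 0.12 log2 against 0.00 for all genes, of which 34.2% were higher and 33.7% lower. Of 29 other genes listed with the NRF2 targets, 13 rose and 11 fell. That list holds regulators such as CUL3 and NFE2L1 beside the targets. The cystine importer SLC7A11, which brings in the cysteine for glutathione, averaged 16.7 ± 1.34 CPM with both nutrients, against 279 ± 4.79 CPM with glucose alone, 16.7-fold lower (-4.07 ± 0.04 log2). Its partner SLC3A2 fell as well (-2.43 ± 0.02 log2), as did the autophagy receptor SQSTM1, which binds KEAP1 (-1.53 ± 0.02), and the small MAF gene MAFF (-2.05 ± 0.05). Rising NRF2 targets included PGD, a pentose phosphate enzyme that makes NADPH (0.85 ± 0.03 log2), and the galactosidase GLA (0.95 ± 0.06). SLC7A11, CHAC1 and SESN2 are also on the ATF4 list.

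Of 23 other genes of glutathione use tested, 15 rose and 5 fell in that comparison, to be read against the same 34.2% and 33.7% of all genes. The transferases GSTO1 and MGST1 rose by 1.00 ± 0.04 and 0.97 ± 0.08 log2, and GLO1, which clears methylglyoxal with glutathione, by 0.44 ± 0.03. CHAC1, an enzyme that degrades glutathione, fell to 5.19 ± 0.29 CPM with both nutrients against 64.5 ± 0.857 CPM with glucose alone (-3.63 ± 0.07 log2). Of 19 further thioredoxin-related genes tested, 8 rose and 5 fell, among them the sestrin SESN2, at 20.9 ± 0.161 CPM with both against 453 ± 7.55 CPM with glucose alone (-4.44 ± 0.03 log2). TXNIP, the inhibitor of thioredoxin that glucose is known to induce, stayed under the low-count filter, with means of at most 0.388 CPM in any medium.

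Between both nutrients and glutamine alone, 37 of the 98 wider genes rose and 43 fell (median -0.04 log2, against -0.01 for all genes), where 32.6% of all genes were higher and 33.0% lower. With library totals 44 of the 98 rose and 38 fell (median 0.06 log2, against 0.09 for all genes), so this balance turned with the scaling. Of all genes, 6764 were then higher and 4359 lower. Falls included those of CHAC1 (-3.81 ± 0.07 log2), SESN2 (-3.09 ± 0.04), SLC7A11 (-2.94 ± 0.04), SLC3A2 (-2.52 ± 0.02), SQSTM1 (-1.15 ± 0.02) and TRIM16L, listed with the NRF2 targets (-1.63 ± 0.05). OPLAH, which recycles the glutathione breakdown product oxoproline, fell as well (-1.44 ± 0.07 log2). With NH4Cl in glucose, 32 rose and 12 fell, where 12.7% of all genes were higher and 16.9% lower. TFRC was among the rises, at 168, 167 and 163 CPM with NH4Cl against 102, 109 and 103 CPM without (0.67 ± 0.03 log2). SLC7A11 fell (-0.47 ± 0.03 log2) and SQSTM1 rose (0.27 ± 0.02). Against neither nutrient, 26 of the 98 were higher and 59 lower in glucose alone, 35 and 53 in glutamine alone and 22 and 55 with both, where the shares of all genes were 39.9% and 37.9%, 37.0% and 35.8%, and 37.0% and 35.3%. With library totals these became 48 and 40 (60.1% and 20.9% of all genes), 56 and 27 (56.4% and 19.6%), and 57 and 22 (64.3% and 14.2%), so the balance of the wider list against that medium turned with the scaling. SLC7A11 kept its rise under both scalings, at 279 ± 4.79 CPM with glucose alone and 128 ± 2.15 CPM with glutamine alone, against 15.1 ± 1.14 CPM with neither.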

How the data were processed

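RNA was sequenced from 15 libraries of H1299 cells, 3 in each of 5 media. The deposited table holds raw read counts for 58395 Ensembl genes, as the authors made them and without normalization. Per the submitters' processing notes, the tools named are HISAT2 2.1.0, featureCounts and Subread 1.5.1, with the build GRCh38.p12. The sources used here do not give their roles, the strand setting or the handling of reads that fit several genes. Symbols came from GENCODE 29, which matched 58275 of the IDs and left 120 unnamed. Library totals ran from 14914127 to 19938691 counts.

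The counts were tested with edgeR 4.0.16 in R 4.3.3: filterByExpr, TMM scaling, glmQLFit with robust estimation on all 15 libraries at once, with 1 coefficient for each medium and 10 residual degrees of freedom, and the two-sided quasi-likelihood F test for 7 comparisons of media and for the interaction. P-values were adjusted by Benjamini-Hochberg over the 16889 genes tested, and a gene was called at an adjusted p under 0.05. The scripts were tested on simulated data. Levels are CPM on TMM-scaled totals, and SDs are over 3 libraries.

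The 38 members, their roles, the wider lists and the markers were chosen with earlier results of these data known. Named with values for every library or with mean levels are the 4 regulators and, per comparison, the 6 called members with the largest absolute change among those with a mean of at least 5 CPM. Members not called are named with values, and of the wider lists up to 3 genes per list and direction with the smallest p. Alternatives were DESeq2 1.42.0 size factors, library totals, 2 other filters, DESeq2's Wald test, a fit of only the media compared, a replicate block, a test against a 1.2-fold change and leaving out each library. Replicate numbers did not pair the libraries. No 2 libraries held identical counts, and replicates differed by more than sampling noise (chi-square per degree of freedom 1.22 to 2.36 over 15 pairs). Intervals of counting error apart from the floor of 3 counts were not used.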

Additional observations from a re-analysis of the deposited data

Results flagged for a closer look

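In 25 members glutamine had called effects of opposite sign with and without glucose, and the difference between these effects was called as well. That difference was tested as the interaction of glucose and glutamine, and its call was part of the rule for flagging. Called effects of opposite sign also largely fix its outcome, so it adds no separate support. The values are that difference in log2, the change with glucose minus the change without it. In 13 genes it was negative: TXNRD1 (-2.67), SRXN1 (-1.84), GCLM (-1.71), MAFG (-1.55), FTH1 (-1.32), NQO1 (-1.31), OSGIN1 (-1.13), HMOX1 (-1.13), GCLC (-1.10), BACH1 (-0.93), FTL (-0.79), GSR (-0.59) and PRDX5 (-0.40). In 12 genes it was positive: GLRX (2.70), PRDX1 (2.24), PRDX3 (1.51), PRDX4 (1.27), SOD1 (1.2), SOD2 (1.08), TXN2 (1.00), TXN (0.99), CAT (0.98), GSTP1 (0.85), PRDX6 (0.75) and GSS (0.47). By edgeR's quasi-likelihood F test the adjusted p ran up to 2.12e-18 among the 25. All 25 kept the sign of this difference with library totals in place of TMM.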

How the results depend on the processing

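Most single-gene results kept their direction and their side of the threshold: of 272, 270 under DESeq2 size factors, 271 with at least 1 CPM in 3 libraries, 264 without a filter, 268 under DESeq2's Wald test and 229 with library totals. A fit of only the media compared gave 270 values, of which 265 did.

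Library totals in place of TMM turned 28 results, all in comparisons that involve the libraries with neither nutrient or, in 2 cases, both against glutamine alone. For glucose alone against neither the values became 0.15 for GCLM, 0.07 for KEAP1, 0.17 for FTL, 0.34 for GSR, 0.01 for CAT, 0.17 for GPX8, 0.16 for GPX4, 0.04 for TXNRD2 and 0.42 for SLC48A1. For glutamine alone against neither they became 0.12 for KEAP1, 0.28 for GSS, 0.12 for CAT and 0.29 for SLC48A1. For both against neither they became 0.10 for GCLC, 0.04 for KEAP1, 0.02 for GSTP1, 0.31 for GSS, 0.27 for PRDX5, 0.15 for PRDX3, 0.20 for GPX4, 0.05 for FTH1, 0.35 for GLRX and 0.43 for SLC48A1. For both against glutamine alone they became 0.03 for GSS and 0.06 for TXN, and for the interaction -0.06 for AIFM2, -0.15 for KEAP1 and -0.28 for SLC48A1. The interaction calls became 12 higher and 17 lower, against 17 and 15 with TMM. The shift of the median of all genes under this scaling went the same way in each of these comparisons.

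Tested against a 1.2-fold change, 19 members in place of 29 were called between both and glutamine alone, 0 in place of 18 with NH4Cl, and 15 in place of 25 in opposite directions. This test asks for a larger change.

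Leaving out 1 library at a time gave 29 to 31 members called for glucose alone against neither, 30 to 31 for glutamine alone, 30 for both, 29 to 30 for both against glucose alone and 28 to 30 for both against glutamine alone. It gave 17 to 19 for NH4Cl against glucose alone, 28 to 29 for NH4Cl against both, 31 to 32 for the interaction and 24 to 25 in opposite directions.

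A replicate block changed no call: 272 of 272 single-gene results kept direction and side, and 25 members were again called in opposite directions. Deviations of same-numbered libraries from their group means had a median correlation of -0.003 over 30 pairs (-0.076 to 0.067), so the numbers did not pair the libraries.

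At these depths AKR1C1 and AKR1C2 rest on at most 31 counts in a library, and the 4 genes below the filter allow no comparison.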
